A study of Mus musculus with 6 samples.

Results

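The miR-106b/93/25 cluster consists of 3 microRNA hairpins that lie in 1 intron of Mcm7, and each hairpin yields a 5p and a 3p arm. The members were taken by name from a table of mature microRNA read counts, as the -5p and -3p rows of miR-106b, miR-93 and miR-25. This gave 6 arms of 1028 microRNAs, all 6 of which passed the filter on low counts, among 460 that did. The cells were a cultured mouse epicardial cell line, a model of the outer layer of the heart. The tested cells (KO, 3 libraries) received a lentivirus carrying a guide RNA for CRISPR/Cas9 knockout of Hdac3, a histone deacetylase of repressor complexes. The control cells (EV, 3 libraries) received an empty-vector lentivirus. Both groups were therefore exposed to a lentivirus, and the share of cells transduced is not stated in the labels. Whether the KO cells were a clone or a pool, and whether replicates were separate cultures, is not stated in the labels. The p-values therefore reflect differences among these 6 libraries, and these could be technical. The title of the series links epicardial Hdac3 to heart muscle growth by way of microRNAs, and the comparison asks which microRNAs differ when Hdac3 is targeted.

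As background, Mcm7 is a subunit of the helicase that unwinds DNA at replication origins, and its transcript is made in dividing cells under the control of E2F factors. The hairpins are cut from its intron, and the cluster is a paralog of the miR-17-92 cluster. miR-106b-5p and miR-93-5p are known to repress the cell cycle inhibitor p21 (Cdkn1a), and miR-25-3p the pro-apoptotic gene Bim (Bcl2l11). In mouse heart muscle, miR-25 is known to act on the calcium pump gene Atp2a2. A microRNA pairs with its targets mainly through its seed, bases 2 to 8, so that microRNAs with 1 seed share many predicted targets.

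The mature sequences of the 6 arms, from RefSeq on GRCm38.p6, are shown because the seed decides which arms belong together. They run 5′ to 3′, with the seed in capitals.

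mmu-miR-106b-5p: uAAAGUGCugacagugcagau

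mmu-miR-93-5p: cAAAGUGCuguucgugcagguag

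mmu-miR-25-3p: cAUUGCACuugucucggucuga

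mmu-miR-106b-3p: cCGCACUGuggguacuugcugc

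mmu-miR-93-3p: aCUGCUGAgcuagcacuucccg

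mmu-miR-25-5p: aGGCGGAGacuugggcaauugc

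miR-106b-5p and miR-93-5p shared the seed AAAGUGC, miR-25-3p had AUUGCAC, and the other 3 arms each had a seed of their own. Counted without gaps from the 5′ end and with the seed included, miR-106b-5p and miR-93-5p differed at 5 of 21 positions, all outside the seed. miR-106b-5p alone began with U, and it had the lowest GC content, 42.9%, against 63.6% in miR-106b-3p from the same hairpin.

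The arms sit in their hairpins as follows, with the mature arms in capitals, so that the 5p arm is the left and the 3p arm the right capital run.

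mir-106b: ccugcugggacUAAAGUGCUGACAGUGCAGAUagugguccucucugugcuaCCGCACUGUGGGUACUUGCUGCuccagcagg

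mir-93: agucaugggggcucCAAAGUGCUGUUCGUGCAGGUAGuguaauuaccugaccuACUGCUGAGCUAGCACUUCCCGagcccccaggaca

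mir-25: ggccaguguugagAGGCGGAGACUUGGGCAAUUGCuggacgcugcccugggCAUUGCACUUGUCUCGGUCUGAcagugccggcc

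On GRCm38 all 3 hairpins map to chromosome 5, minus strand, with Mir106b at chr5:138165737-138165818, Mir93 at chr5:138165523-138165610 and Mir25 at chr5:138165321-138165404. In the GENCODE M21 annotation this is intron 13 of the 15-exon transcript Mcm7-201, and Mcm7 spans chr5:138164583-138172422. The intron is 748 bp long and the hairpins together cover a stretch of 498 bp, with gaps of 126 bp between Mir106b and Mir93 and 118 bp between Mir93 and Mir25. Both basic Mcm7 transcripts in that annotation span the hairpins, and 0 have an exon that overlaps them.

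**Figure D1:**
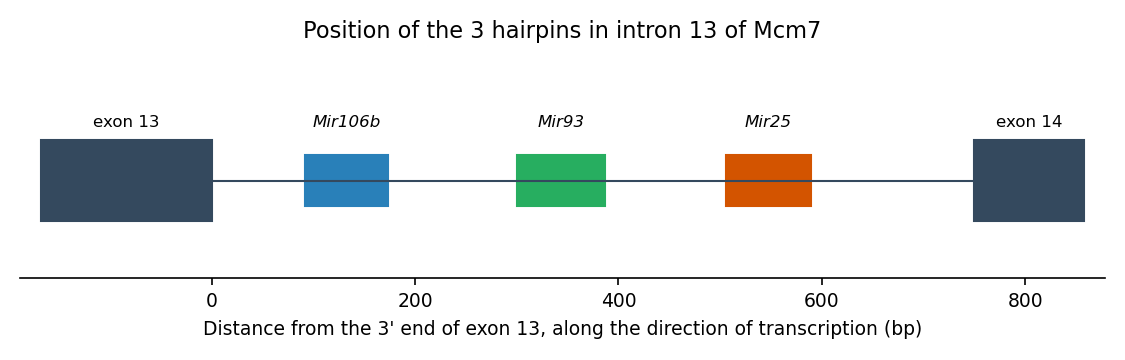
The 3 hairpins (coloured boxes) between exons 13 and 14 of Mcm7 (dark boxes), plotted by distance in bp from the 3′ end of exon 13 in the direction of transcription. Mir106b begins 91 bp after the exon, Mir93 299 bp and Mir25 505 bp after it.

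The libraries held 11824881 to 13412774 counts. Levels are given as CPM, reads per 1000000 after TMM scaling, and the TMM factor was 1.23 in EV 1 and 0.919 to 1.04 in the other 5 libraries. On this scale 1 read was worth 0.0637 to 0.0892 CPM. The closest pair of libraries within a group differed beyond counting noise (chi-square 9040 on 459 degrees of freedom), so none was 1 library deposited again and each was counted once. This does not tell separate cultures from repeat preparations. The red blood cell microRNA miR-451a set 2 libraries apart, with 62.7 CPM in KO 2 and 54.7 CPM in EV 3, against at most 2.45 CPM in the other 4. The 6 listed fibroblast-like and smooth-muscle microRNAs summed to 765489 to 837968 CPM in KO and 593902 to 842707 CPM in EV, of which miR-21a-5p alone made up 676324 to 754475 CPM in KO and 513964 to 763066 CPM in EV. The summed levels of the epithelial list were 25.3 to 27.3 CPM in KO and 41.4 to 50.03 CPM in EV, and those of the endothelial list 34.7 to 35.4 CPM in KO and 36.6 to 42.1 CPM in EV. By the edgeR test given below, 2 of the 4 tested epithelial microRNAs were called, against 7.61% of all tested microRNAs. In each of the other marker lists 0 were called. Whether this bears on the cluster was not tested. The 4 blood microRNAs summed to 5.92 to 77.8 CPM in KO and 8.73 to 67.99 CPM in EV. The 2 neural ones summed to 15.2 to 57.8 CPM in KO and 11.3 to 52.1 CPM in EV. In both lists KO 2 and EV 3 were the highest of their groups, with EV 2 at 32.7 CPM in the neural list. On the first principal component of all tested microRNAs (38.7% of the variance), EV 3 lay at 6.78 and KO 2 at 5.37. The other libraries lay at -0.087 or lower. The cardiac muscle list summed to at most 2.51 CPM in any library. Small-RNA counts do not measure the Hdac3 or Mcm7 mRNA, so neither the knockout nor the host transcript was checked.

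On the TMM scale, Hdac3-targeted and control cells held the cluster at nearly the same mean total level, and none of its 6 arms passed the test. The summed level of the 6 arms was 1204, 1222 and 1259 CPM in KO 1, KO 2 and KO 3, and 1269, 1168 and 1233 CPM in EV 1, EV 2 and EV 3. The groups overlapped, with EV 1 highest and EV 2 lowest of all 6 libraries. The means were 1229 ± 27.97 CPM in KO and 1223 ± 51.5 CPM in EV (SD, n = 3 each), a log2 difference of 0.01 (two-sided exact permutation test, p = 1, where 3 against 3 libraries cannot go below 0.1). The cluster took 0.117% ± 0.00524 of all counts in KO and 0.130% ± 0.0225 in EV (SD, n = 3 each). With library size alone the log2 difference of the summed level was -0.14. miR-25-3p and miR-93-5p gave most of the cluster's reads, so the sum says little about the other arms.

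edgeR's quasi-likelihood test, two-sided and with Benjamini-Hochberg adjustment over all 460 tested microRNAs at 0.05, called 35 of them (7.61%) and 0 of the 6 arms. At an unadjusted p under 0.05 edgeR had 0 arms, against 23% of all tested microRNAs. DESeq2 and limma-voom also called 0 arms, with 1 and 0 at an unadjusted p under 0.05, and DESeq2 gave no adjusted p for miR-93-3p. Among all microRNAs, DESeq2 called 44 of the 389 with an adjusted p, and limma-voom 38 of 460. DESeq2 was run on all 1028 microRNAs without the filter, and 99 of these had an unadjusted p under 0.05. For limma-voom it was 111 of 460. The arms' median log2 change was -0.03, and -0.01 over all tested microRNAs, with 3 of 6 arms above 0. The authors' deposited table, which lists 78 microRNAs with an adjusted p up to 0.0488, holds 0 of the 6 arms.

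By level the arms fell into an order that was the same on average in both groups. miR-25-3p ranked 50 of the 460 tested microRNAs by mean CPM, miR-93-5p ranked 56, miR-106b-3p 110, miR-106b-5p 143, miR-25-5p 345 and miR-93-3p 396. The first 4 did not overlap with their neighbours over the 6 libraries, at 535 to 642, 389.8 to 503, 114 to 168 and 58.96 to 69.3 CPM. miR-25-5p, at 1.54 to 3.95 CPM, overlapped with miR-93-3p, at 1.05 to 2.71 CPM. All arms are 21 to 23 bases long, so no length term entered this order. Adaptor ligation and gel selection favour some microRNAs, which limits this order. The comparison of 1 arm between groups is free of this only if it was alike in all libraries, which was not tested.

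miR-25-3p, the most abundant arm, had 618, 642 and 597 CPM in KO 1, KO 2 and KO 3, and 595, 578 and 535 CPM in EV 1, EV 2 and EV 3. Every KO library lay above every EV library, though the lowest KO and highest EV values nearly met. All KO values were above all EV values for 15.2% of tested microRNAs too, and the groups were apart in either direction for 29.1%. The log2 change was 0.12 (SE 0.07, 95% interval -0.03 to 0.27, edgeR Benjamini-Hochberg adjusted p = 0.330), which bounds the ratio of KO to EV between 0.977 and 1.21. Scaled by library size alone, where the median log2 change of all tested microRNAs was -0.16, the KO values were 568, 633 and 564 CPM and the EV values 729.8, 599 and 492 CPM. On that scale the groups overlapped and the log2 change was -0.04 (SE 0.14).

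miR-25-5p, the other arm of that hairpin, had 19, 43 and 25 counts in KO 1, KO 2 and KO 3, and 62, 32 and 36 counts in EV 1, EV 2 and EV 3. This came to 1.54, 3.43 and 2.05 CPM in KO, against 3.95, 2.61 and 3.21 CPM in EV. KO 1 and KO 3 lay below all EV libraries, and KO 2 lay above EV 2 and EV 3. Its log2 change was -0.48 (SE 0.30, 95% interval -1.15 to 0.18, edgeR adjusted p = 0.348). Without KO 2 the log2 change was -0.86 (edgeR adjusted p = 0.123), without KO 1 it was -0.26 and without EV 1 -0.31. Without EV 3 and KO 2 together, the libraries high in miR-451a, it was -0.88 (edgeR adjusted p = 0.0569), and the part of other cell types in this was not tested. The lowest count, 19, has an exact 95% Poisson interval of 11.4 to 29.7 and the highest, 62, one of 47.5 to 79.5, which do not overlap. Taking the lowest and highest library favours such a gap. These counts are also unscaled, and the TMM-scaled library size was 12334277 in KO 1 and 15699810 in EV 1. Such intervals cover counting error only, as PCR copies were counted as reads.

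miR-93-5p had 401, 390.4 and 468 CPM in KO 1, KO 2 and KO 3, and 435, 389.8 and 503 CPM in EV 1, EV 2 and EV 3. The groups overlapped almost wholly, as the lowest library of each group lay at the same level. Its log2 change was -0.08 (SE 0.11, 95% interval -0.32 to 0.16, edgeR adjusted p = 0.685), which bounds the ratio of KO to EV between 0.804 and 1.12.

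miR-93-3p, the rare arm, had 13, 34 and 15 counts in KO 1, KO 2 and KO 3, and 31, 16 and 18 counts in EV 1, EV 2 and EV 3. The highest library was KO 2, at 2.71 CPM, and the lowest KO 1, at 1.05 CPM. The log2 change of 0.02 (SE 0.39, 95% interval -0.85 to 0.89, edgeR adjusted p = 0.977) bounds the ratio of KO to EV between 0.554 and 1.86. Without KO 2, which also had the highest miR-451a, the log2 change was -0.52, and without EV 2 it was -0.15. Counts of 13 in KO 1 and 34 in KO 2 have exact 95% Poisson intervals of 6.92 to 22.2 and 23.5 to 47.5, which do not overlap. They are the lowest and highest counts of this arm, a choice that favours such a gap. The part of other cell types in these values was not tested.

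miR-106b-5p, which shares its seed with miR-93-5p, had 69.3, 68.8 and 58.96 CPM in KO 1, KO 2 and KO 3, and 64.5, 66.9 and 60.9 CPM in EV 1, EV 2 and EV 3. KO held both the highest and the lowest library. The mean was 65.7 ± 5.82 CPM in KO and 64.1 ± 3.06 CPM in EV (SD, n = 3 each). The log2 change was 0.03 (SE 0.11, 95% interval -0.21 to 0.28, edgeR adjusted p = 0.883).

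miR-106b-3p had 114, 115 and 132 CPM in KO 1, KO 2 and KO 3, and 168, 129 and 129 CPM in EV 1, EV 2 and EV 3. EV 1 stood above all other libraries, while KO 3 lay above EV 2 and EV 3, so the groups overlapped. The log2 change was -0.24 (SE 0.12, 95% interval -0.51 to 0.02, edgeR adjusted p = 0.254). In DESeq2 this was the arm with an unadjusted p under 0.05, at a log2 change of -0.26. With 1 library left out, the edgeR log2 change ran from -0.34 without EV 2 to -0.10 without EV 1, whose TMM factor was the highest. Before adjustment it passed 0.05 in edgeR without the filter, without EV 3, without KO 3 and without EV 3 and KO 2 together. With miR-21a-5p left out of the library sizes it did so too, and in the other edgeR settings it did not. Its lowest edgeR adjusted p, without EV 3, was 0.117.

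**Figure D2:**
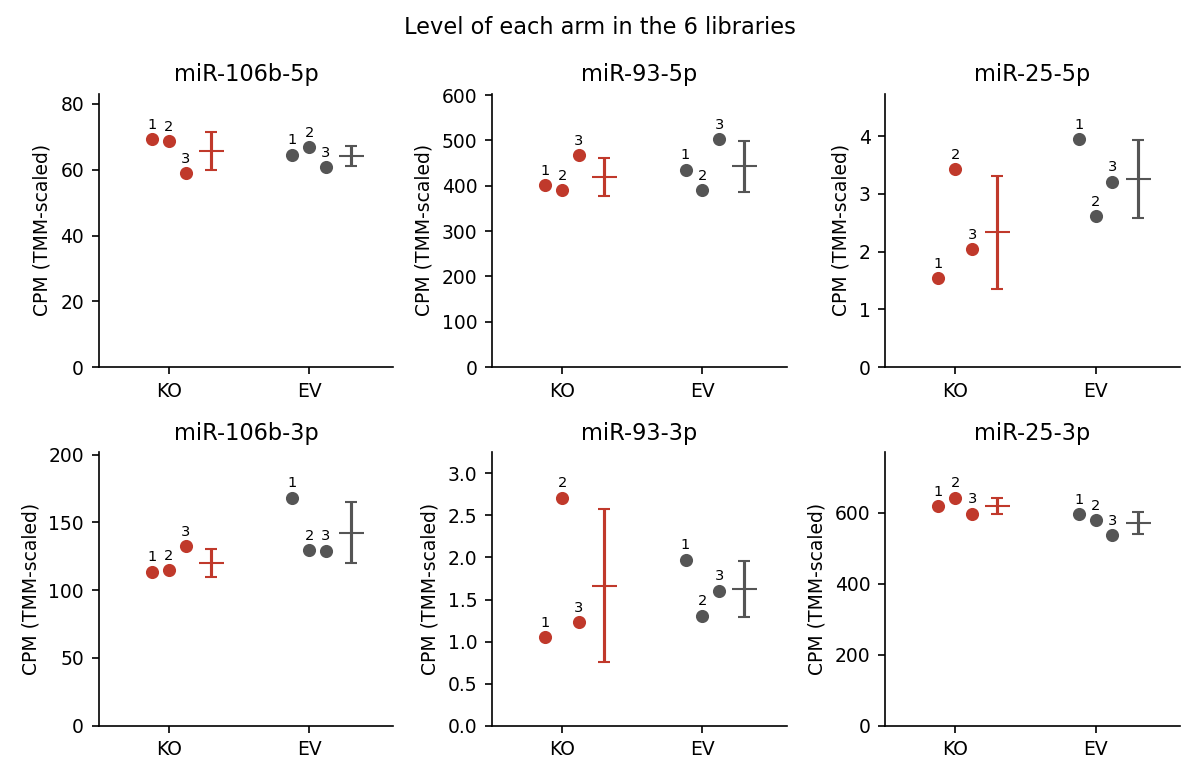
CPM of each of the 6 arms (1 panel per arm, linear axis from 0) in the KO and EV libraries. Each point is 1 library, numbered by replicate, and the bar beside it gives the mean ± SD of 3 libraries. miR-25-3p is the panel in which all KO libraries, from 597 CPM up, lie above all EV libraries, up to 595 CPM.

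The arms of the cluster did not all rise and fall together over these 6 libraries. Over the 6 libraries, the log2 CPM of miR-93-5p and miR-106b-5p had a Pearson correlation of -0.90, miR-93-5p and miR-25-3p one of -0.72, and miR-106b-5p and miR-25-3p one of 0.60. These are descriptions of 6 points that share library scaling, with no test. The rare arms miR-93-3p and miR-25-5p stood at 0.85, both being high in KO 2 and EV 1. The 5p and 3p arms of a hairpin stood at -0.40 in miR-106b, -0.12 in miR-93 and -0.19 in miR-25. Among 245 other microRNAs of at least 10 CPM, those closest to the summed level of the cluster by the same measure were miR-351-5p (0.94), miR-378a-5p (0.90), miR-344b-3p (0.80), miR-423-5p (0.74) and miR-485-5p (0.71). Over 6 libraries the highest of 245 correlations is high by selection.

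Ratios within a library do not depend on how libraries are scaled. miR-25-3p had 1.54, 1.64 and 1.28 reads per read of miR-93-5p in KO 1, KO 2 and KO 3, and 1.37, 1.48 and 1.06 in EV 1, EV 2 and EV 3. KO 3 and EV 3 were the lowest of their groups, and the groups overlapped. Their log2 difference was 0.19 (two-sided exact permutation test, p = 0.4, adjusted over 3 ratios p = 0.5). miR-25-3p over miR-106b-5p was 8.91, 9.34 and 10.1 in KO, and 9.23, 8.63 and 8.80 in EV, a log2 difference of 0.09 (exact permutation test, p = 0.2, adjusted p = 0.5). miR-93-5p over miR-106b-5p was 5.79, 5.68 and 7.93 in KO, and 6.75, 5.82 and 8.27 in EV, a log2 difference of -0.11 (exact permutation test, p = 0.5, adjusted p = 0.5). None of these 3 ratios of single arms separated KO from EV. miR-106b entered them by its 5p arm, which had fewer reads than its 3p arm in every library. Single-arm ratios to miR-106b-3p were not tested. With both arms of a hairpin summed, miR-25 over miR-106b was 3.38, 3.52 and 3.13 in KO, and 2.57, 2.96 and 2.84 in EV, so that all KO libraries lay above all EV libraries. Its log2 difference was 0.26, against 0.09 for the single arms (exact permutation test, p = 0.1, the smallest possible, adjusted over 3 ratios p = 0.3). That adjustment leaves out the 3 ratios of single arms, and how often such ratios lie apart among other hairpins was not computed. Most reads of the miR-106b sum were 3p, the arm that was highest in EV 1 (2641 counts of 3p and 1013 of 5p there). The other 2 ratios overlapped with both arms summed too.

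The hairpins differed in which arm gave the reads. In miR-106b the 3p arm exceeded the 5p arm in every library, although the 5p arm carries the seed of the miR-17 family. The 3p reads per 5p read were 1.64, 1.67 and 2.24 in KO 1, KO 2 and KO 3, and 2.61, 1.93 and 2.12 in EV 1, EV 2 and EV 3. KO 1 and KO 2 lay below all EV libraries and KO 3 within their range.

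miR-93 gave almost only its 5p arm, with 380.7, 144 and 380.6 reads of 5p per read of 3p in KO 1, KO 2 and KO 3, and 220.5, 298.5 and 313 in EV 1, EV 2 and EV 3. miR-25 gave almost only its 3p arm, with 401, 187 and 292 reads of 3p per read of 5p in KO, and 151, 221 and 167 in EV. KO 2 fell within the EV range for miR-25 and below it for miR-93. These ratios rest on 13 to 62 counts of the rare arm.

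The change of the 5p over 3p ratio was tested with limma over the 133 hairpins whose arms both passed the filter, of which it called 0 (0%). The log2 change of the ratio was 0.27 for miR-106b (SE 0.17, 95% interval -0.12 to 0.66, limma adjusted p = 0.959) and 0.00 for miR-93 (SE 0.36, 95% interval -0.81 to 0.81, limma adjusted p = 0.999). For miR-25 it was -0.65 (SE 0.27, 95% interval -1.27 to -0.03, limma adjusted p = 0.672). Before adjustment it was the hairpin of the cluster that passed 0.05 in this main fit, as 6.77% of the 133 did. It passed 0.05 before adjustment in 4 of 11 other settings, and not with the replicate block, without the trend, without the filter or without EV 1, EV 3, KO 1 or KO 3. The change was -0.39 without KO 1 and -0.93 without KO 2. Without EV 3 and KO 2 together it was -0.89 (limma adjusted p = 0.186), and that of miR-93 was 0.55 (limma adjusted p = 0.489). The groups overlapped for all 3 hairpins of the cluster, and were apart for 12% of the 133.

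**Figure D3:**
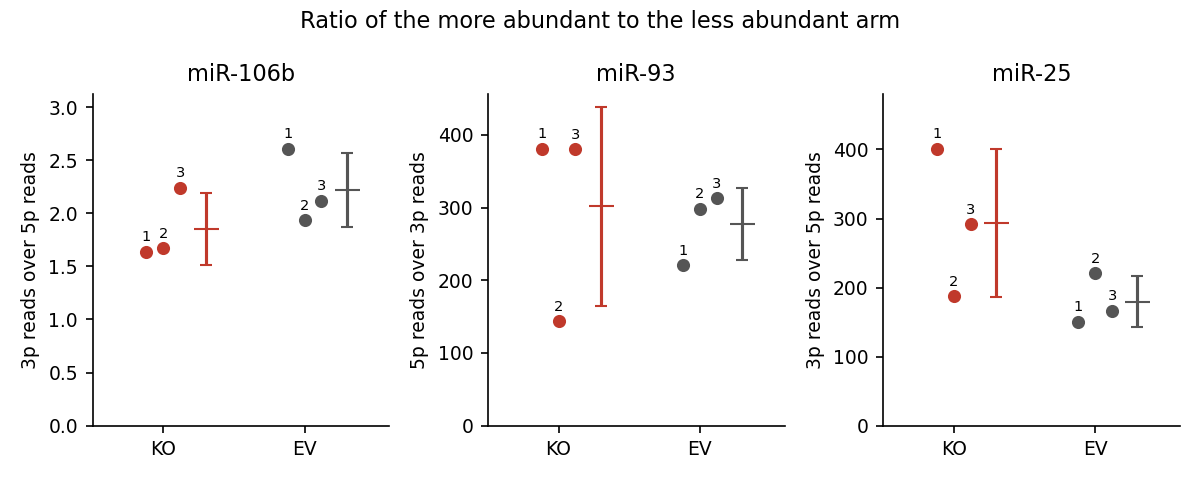
Reads of the more abundant arm per read of the less abundant arm (3p over 5p for miR-106b and miR-25, 5p over 3p for miR-93) in KO and EV libraries, on linear axes from 0. Points are single libraries numbered by replicate, with the mean ± SD of 3 beside them. miR-106b stays between 1.64 and 2.61, while miR-93 and miR-25 lie between 144 and 401.

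The share that the cluster gives to each seed family was read next, since paralogs from other loci carry the same seeds. Of the microRNAs in the count table, 849 were matched by name to a mature RefSeq sequence, and 5 of them had the seed AAAGUGC and 5 the seed AUUGCAC. The most abundant paralogs are shown for comparison with the arms above, again with the seed in capitals. The first 2 come from the miR-17-92 cluster on chromosome 14, and miR-92a-3p from hairpins on chromosomes 14 and X.

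miR-17-5p: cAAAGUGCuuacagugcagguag

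miR-20a-5p: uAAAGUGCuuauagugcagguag

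miR-92a-3p: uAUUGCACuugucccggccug

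Counted without gaps from the 5′ end, miR-106b-5p differed from miR-17-5p at 3 of 21 positions and miR-93-5p from miR-17-5p at 4 of 23. miR-25-3p differed from miR-92a-3p at 3 of 21. The labels give no rule for reads that fit more than 1 microRNA, so reads shared between these names cannot be told apart.

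miR-93-5p and miR-106b-5p together supplied close to the same share of the AAAGUGC reads in both groups. It was 47.2%, 50.1% and 49.1% in KO 1, KO 2 and KO 3, and 50.9%, 45.8% and 46.7% in EV 1, EV 2 and EV 3, with 95% Wilson intervals of at most ± 0.914 percentage points. The groups overlapped, and their means differed by 0.998 percentage points (two-sided exact permutation test, p = 0.7, adjusted over 2 families p = 0.7). Within the family miR-93-5p gave 42.2% ± 1.71 in KO and 41.7% ± 2.63 in EV (SD, n = 3 each), and miR-106b-5p gave 6.65% ± 1.04 in KO and 6.11% ± 0.931 in EV. miR-20a-5p gave most of the rest, 37.3% ± 1.53 in KO and 38.7% ± 2.93 in EV.

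miR-25-3p supplied most of the AUUGCAC reads, and a larger share in each KO library than in any EV library. The share was 65.1%, 63.6% and 62.9% in KO 1, KO 2 and KO 3, and 59.8%, 60.6% and 60.7% in EV 1, EV 2 and EV 3, with 95% Wilson intervals of at most ± 0.963 percentage points. The mean was 63.9% ± 1.13 in KO and 60.4% ± 0.451 in EV (SD, n = 3 each), a difference of 3.53 percentage points. The two-sided exact permutation test gave p = 0.1, the smallest that 3 against 3 allows, and p = 0.2 adjusted over the 2 families, so it could not pass the threshold. Among 45 seed families with at least 2 tested members, the share of the most abundant member lay apart between the groups in 33.3%.

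The second member of that family was miR-92a-3p, and it held 32.9% ± 1.33 of the family's reads in KO and 36.4% ± 0.989 in EV (SD, n = 3 each). In counts, there were 2.08, 1.90 and 1.86 reads of miR-25-3p per read of miR-92a-3p in KO 1, KO 2 and KO 3, and 1.59, 1.69 and 1.69 in EV 1, EV 2 and EV 3, a ratio chosen after its values were seen. Neither partner was called by edgeR, and miR-92a-3p stood at a log2 change of -0.11 (SE 0.08) with an adjusted p = 0.464. The family as a whole summed to 969 ± 35.5 CPM in KO and 944 ± 56.9 CPM in EV (SD, n = 3 each). The AAAGUGC family summed to 995 ± 77.8 CPM in KO and 1062 ± 127 CPM in EV.

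**Figure D4:**
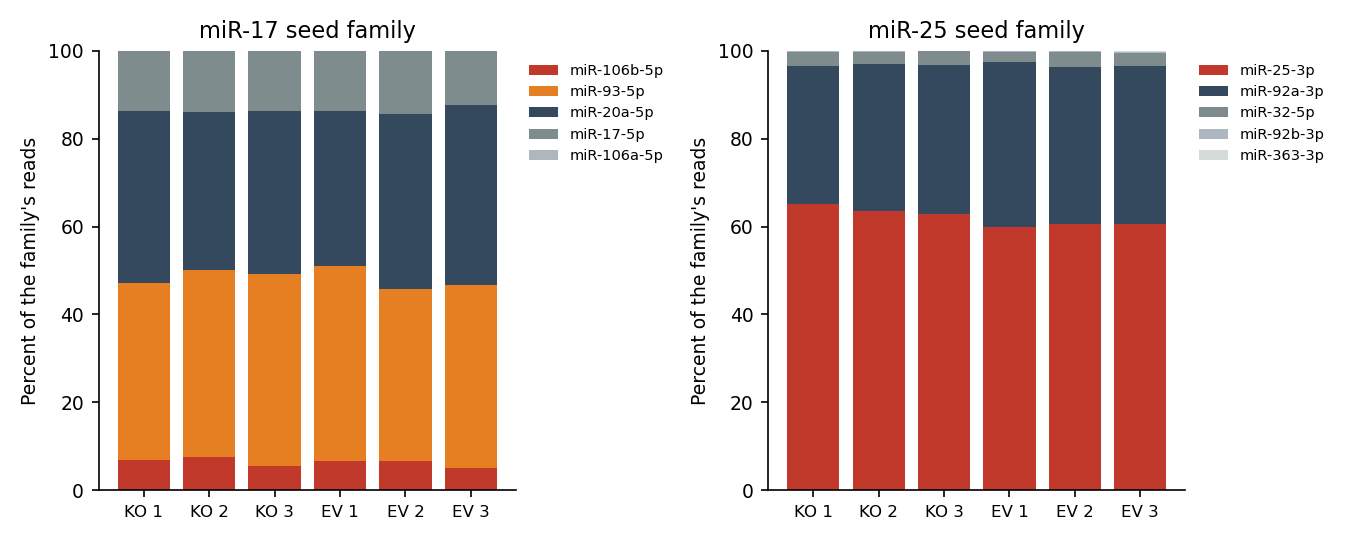
Percent of the reads of each seed family (stacked bars from 0 to 100, 1 bar per library) given by each of its members, with the arms of the cluster at the bottom in red and orange. The miR-25-3p part of the miR-25 family reaches 62.9% to 65.1% in KO and 59.8% to 60.7% in EV.

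In the paralogous miR-17-92 cluster, 9 of 12 listed arms passed the filter, edgeR called 0, and the median log2 change was -0.11 with 2 above 0. Its abundant arms miR-20a-5p and miR-17-5p had log2 changes of -0.15 (SE 0.13) and -0.05 (SE 0.09), and miR-19b-3p one of 0.27 (SE 0.16). Of the 10 listed arms of the X-linked miR-106a-363 cluster, 2 had a row here and 0 passed the filter, miR-106a-5p having at most 1 count in a library and miR-363-3p at most 17. That list leaves out miR-92a-3p, which also comes from a hairpin on chromosome X. It was listed with miR-17-92, and its reads cannot be assigned to either hairpin.

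**Figure D5:**
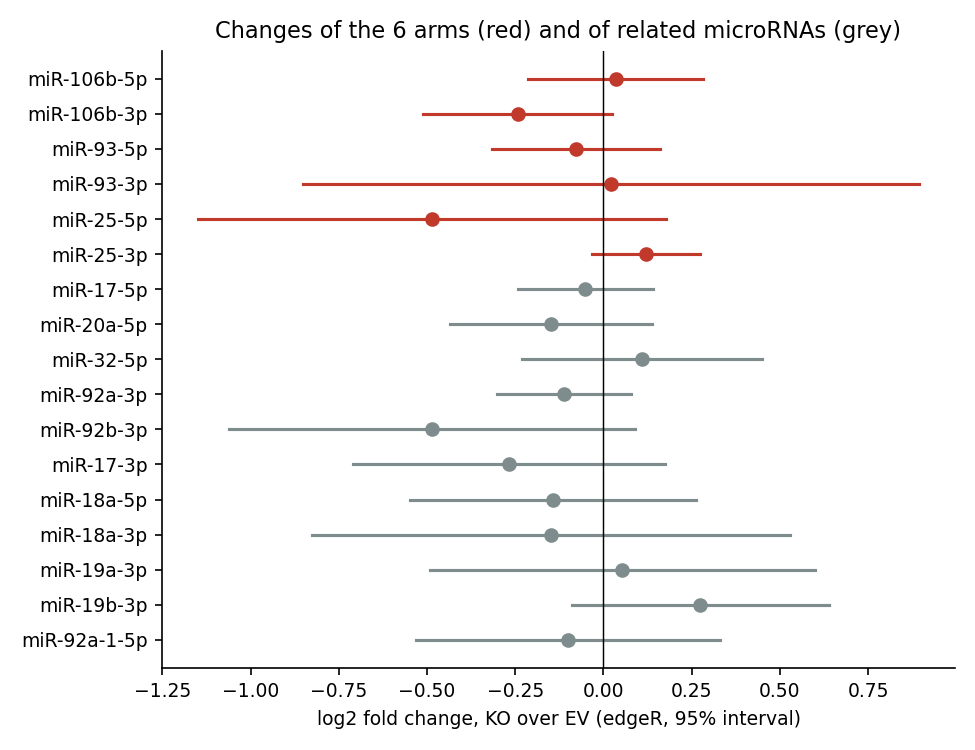
Log2 fold change of KO over EV with its 95% interval (edgeR) for the 6 arms of the cluster (red, top) and for the tested microRNAs of their seed families and of the miR-17-92 cluster (grey, below). Every interval crosses 0, and those of the abundant arms miR-25-3p and miR-93-5p, -0.03 to 0.27 and -0.32 to 0.16, are narrower than those of the rare arms miR-93-3p and miR-25-5p.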

How the data were processed

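Per the labels' protocols, total RNA was taken up in Trizol, adaptors were ligated with a NEBNext small-RNA kit, and products were cut from a gel by size. The submitters' processing notes name the mm10 build, Bowtie and DESeq 1.8.3. The authors deposited whole-number read counts per mature microRNA and TPM values. The deposited TPM equal the counts scaled to 1000000 per library, so no test used them. A further table deposited by the authors holds group means of normalized counts (a signal), log2 fold changes and p-values, and was used only to look up the 6 arms.

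From the counts, KO was compared with EV in edgeR 4.0.16 (R 4.3.3) with TMM factors, filterByExpr (minimum count 10, minimum total 15) and the quasi-likelihood F test. Its 95% intervals come from the F statistic. Arm ratios, log2 of 5p over 3p counts with 0.5 added, were fitted in limma 3.58.1 with a trend. DESeq2 1.42.0 and limma-voom were alternatives. Single values were tested by exact permutation in scipy 1.17.1. Both fits were tested on simulated data. Named microRNAs are the 6 arms, abundant members of the paralog and seed lists, and the 5 nearest to the summed level. The members, lists and alternatives were chosen with earlier results of these data known. Coordinates and sequences are from GENCODE M21 and RefSeq on GRCm38, the mm10 assembly.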

Additional observations from a re-analysis of the deposited data

How the results depend on the processing

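The count of called arms was 0 in all 15 alternatives, including each library left out in turn, where the 10 CPM filter kept 4 of the 6 arms. The number of all microRNAs called was 35, against 5 with library size alone, 56 without the filter, 88 without EV 3 and KO 2 together, and 15 to 59 with 1 library left out.

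The small log2 changes of miR-106b-5p, miR-93-3p, miR-93-5p and miR-25-3p changed sign under some settings, and the cause was not tested. With library size alone they were -0.13 for miR-106b-5p, -0.14 for miR-93-3p and -0.0446 for miR-25-3p. With library sizes without miR-21a-5p, which take the median of all microRNAs to -0.11, miR-106b-5p was at -0.065 and miR-93-3p at -0.0832. miR-93-3p was at -0.0915 in limma-voom, -0.0123 without the filter, and from -0.52 to 0.27 with 1 library left out, below 0 without EV 2 or KO 2. miR-106b-5p ran from -0.00465 to 0.106 and miR-93-5p from -0.185 to 0.0237 with 1 library left out, the sign changing without EV 3 for both and without KO 1 for miR-106b-5p. Without EV 3 and KO 2 together the changes were -0.0302 for miR-106b-5p, 0.0789 for miR-93-5p and -0.54 for miR-93-3p. miR-106b-3p (-0.42 to -0.10) and miR-25-5p (-0.88 to -0.26) stayed below 0 in every alternative that tested them.

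The log2 difference of the summed level was -0.000268 with median-of-ratios factors, -0.14 with library size alone, -0.0909 with library sizes without miR-21a-5p, and -0.0535 to 0.0371 with 1 library left out, below 0 without EV 2 or KO 3. The change of the miR-93 arm ratio ran from -0.23 to 0.46 with 1 library left out (below 0 without EV 1, KO 1 or KO 3), that of miR-25 from -0.93 to -0.39 and that of miR-106b from 0.14 to 0.41. Without EV 3 and KO 2 they were 0.55, -0.89 and 0.23. The log2 difference of miR-25-3p over miR-93-5p was -0.022 without EV 3 and KO 2 together, and 0.0546 to 0.30 with 1 library left out. That of miR-93-5p over miR-106b-5p was 0.11 without those 2 libraries, 0.0716 with both arms summed, and -0.262 to 0.0272 with 1 library left out, above 0 without EV 3. That of miR-25-3p over miR-106b-5p was 0.263 with both arms summed, where the groups no longer overlapped, and 0.0382 to 0.131 with 1 library left out. The AAAGUGC share differed by -0.213 percentage points without EV 3 and KO 2 together and by 0.00216 to 2.56 with 1 library left out. The AUUGCAC share of miR-25-3p was higher in KO by 2.90 to 3.99 percentage points in the other 9 alternatives and by 3.66 against miR-92a-3p alone, a setting chosen after seeing the data.

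Deviations of same-numbered libraries correlated at 0.30, -0.04 and -0.22, too few values to show or exclude a pairing. With the replicate block 34 microRNAs and 0 arms were called, with miR-93-3p at -0.0337, the summed level at 0.01, and arm ratio changes of 0.27, 0.00 and -0.65 for miR-106b, miR-93 and miR-25. The rare arms had 13 to 62 counts.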
